A study of Mus musculus with 2 samples.

Results

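The genes of the mitochondrial ribosomal proteins were examined in ALL65, a leukaemia of T lymphoblasts that arose in a mouse. They were taken by symbol from the table of counts per gene, as every Mrpl or Mrps symbol followed by a digit, leaving out names that mark pseudogenes. This gave 78 of 27179 listed genes, 29 named for the small subunit and 49 for the large subunit. Each group had 1 library, so the differences below have no replicate check, and no test was possible. Every leukaemia cell carried a tetracycline transactivator under the Vav promoter of blood cells (Vav-tTA) and a construct in which that transactivator drives green fluorescent protein (GFP) and a hairpin against Ikaros (TRE-GFP-shIkaros). The untreated library came from GFP-high cells, with the hairpin on. The Dox library came from GFP-mid cells of mice given doxycycline (Dox) for 3 days, which turns the hairpin off. Both were sorted from the spleens of recipient mice. The leukaemia is 1 primary tumour, and the gate differs along with the treatment. The sources used here give no ages.

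The mitochondrial ribosome is a separate machine from the cytosolic one. It sits in the mitochondrial matrix and makes only the proteins encoded by mitochondrial DNA, which are core subunits of the respiratory chain and of ATP synthase. All of its proteins are encoded in the nucleus, translated in the cytosol and imported, while its ribosomal RNAs come from mitochondrial DNA. Some of its proteins descend from bacterial ribosomal proteins and others exist only in mitochondria. T cells make more mitochondria and more of their ribosomes when they begin to grow and divide.

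The mitochondrial ribosomal protein genes stood close to their untreated level in the Dox library. Levels are in CPM, a gene's counts per 1000000 counts of its library. The library totals were first scaled by the trimmed mean of M values (TMM). A gene was called tested when its mean over both libraries reached 5 CPM, and 76 of the 78 members did. Of these, 74 lay within 1.5-fold, beside 88.4% of all 9955 genes tested, and 71 lay within 1.3-fold, beside 76.9% of all genes. The members at least 1.5-fold lower with Dox were Mrps25 and Mrps31, both of the small subunit, and 0 were at least 1.5-fold higher. No tested member reached 2-fold, a size passed by 2.02% of all genes in the higher and 1.91% in the lower direction. The median log2 ratio of Dox over untreated was -0.079, against 0.014 over all genes tested. Small and large subunit had medians of -0.11 and -0.057, a difference of -0.049, and whether they differ was not tested.

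Promoter sequence was set beside these values, because nuclear genes for mitochondrial proteins are known for sites of ETS factors such as GABPA, of NRF1 and of YY1. RefSeq promoters (GRCm38.p6) were matched for 69 of the 78 members, each reaching from 250 bases before to 50 after the start that table gives. For 48 members that start is the outer bound of the gene in RefSeq, and for 21 it lies inside that bound, among them Mrps31 by 891 bases and Mrps23 by 10282 bases. The stretches shown here run from 120 bases before the start to 30 after it, on the strand of the gene. They belong to the members with the 3 lowest and the 2 highest ratios among the tested members with a promoter, and to Mrps11, whose start region is shared with Mrpl46. Capitals mark matches to the motifs searched, on either strand.
Mrps25 (chr6:92183994-92184143, minus strand): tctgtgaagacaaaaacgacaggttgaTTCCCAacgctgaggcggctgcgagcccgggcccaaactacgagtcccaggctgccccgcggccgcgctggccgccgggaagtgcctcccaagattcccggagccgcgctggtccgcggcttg
Mrps31 (chr8:22411220-22411369, plus strand): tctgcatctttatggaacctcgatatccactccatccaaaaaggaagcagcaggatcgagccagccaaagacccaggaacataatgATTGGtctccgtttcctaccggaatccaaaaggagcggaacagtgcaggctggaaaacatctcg
Mrpl12 (chr11:120484517-120484666, plus strand): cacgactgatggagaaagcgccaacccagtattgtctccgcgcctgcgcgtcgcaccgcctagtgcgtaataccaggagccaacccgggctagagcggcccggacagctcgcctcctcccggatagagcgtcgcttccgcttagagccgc
Mrps23 (chr11:88204268-88204417, plus strand): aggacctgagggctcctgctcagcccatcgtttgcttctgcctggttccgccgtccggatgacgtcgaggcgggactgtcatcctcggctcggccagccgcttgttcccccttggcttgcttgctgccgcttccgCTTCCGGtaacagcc
Mrps21 (chr3:95871485-95871634, minus strand): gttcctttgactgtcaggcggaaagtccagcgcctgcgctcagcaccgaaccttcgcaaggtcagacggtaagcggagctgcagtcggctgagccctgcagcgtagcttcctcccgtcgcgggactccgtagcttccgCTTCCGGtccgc
Mrps11 (chr7:78783011-78783160, plus strand): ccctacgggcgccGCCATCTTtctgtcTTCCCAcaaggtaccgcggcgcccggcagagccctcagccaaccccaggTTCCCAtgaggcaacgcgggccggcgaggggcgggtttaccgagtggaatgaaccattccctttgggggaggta

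In Mrps23 and Mrps21, the capitals mark the ETS core, read on the opposite strand, whose first base lies at 16 and 19 bases after the start. In Mrps25 they mark the core bound by Ikaros, in Mrps31 a CCAAT box, and in Mrps11 a YY1 match and 2 Ikaros cores. The stretch of Mrpl12 held 0 matches. The RefSeq start sites of Mrps11 and Mrpl46, at 78783131 and 78783089 on chromosome 7, lie 42 bases apart and point away from each other, so that a gene of each subunit is read from 1 region.

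Over the whole 300 bases, the ETS core CCGGAAG was found in 26 of 69 members (37.7%), against 23.6% of the 7828 tested genes and 12.7% of all 18458 listed genes with a promoter. The YY1 motif AAGATGGC was found in 12 members (17.4%), against 6.20% of tested genes. The NRF1 motif GCATGCGC was found in 8 members (11.6%), against 6.96%. At least 1 of these 3 was present in 38 members (55.1%), against 33.1% of tested genes. For other factors the share lay closer to that among tested genes, or below it. The E-box CACGTG, read by MYC, MAX and USF factors, was in 5 members (7.25%, against 12.5%), the Ikaros core TGGGAA in 20 (29.0%, against 25.8%) and CCAAT in 27 (39.1%, against 43.6%). Both strands were searched, a gene with several promoters counted once, and a match is a description of the letters only. By subunit, the ETS core was in 11 of 26 small and 15 of 43 large subunit genes, and the NRF1 motif in 1 and 7.

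The median log2 ratio was 0.010 for the 26 tested members with the ETS core and -0.094 for the 41 without it. For the Ikaros core it was -0.11 with a match (20 genes) and -0.051 without (47 genes). For the CCAAT box it was -0.13 with (25 genes) and -0.029 without (42 genes). For the E-box it was -0.15 with (4 genes) and -0.054 without (63 genes). The YY1 motif gave -0.041 with (11 genes) and -0.066 without (56 genes). The NRF1 motif gave -0.053 with (8 genes) and -0.054 without (59 genes). Whether the members with and without a match differ was not tested.

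The libraries held 7477988 counts (untreated) and 14457475 counts (Dox). Ikzf1, the gene the hairpin targets, stood at 262 and 1455 CPM. All 12 T lineage markers were tested, with summed levels of 4890 and 5848 CPM and a median log2 ratio of 0.73. At least 1.5-fold higher with Dox were 7 of them, beside 5.97% of all genes, and 0 were at least 1.5-fold lower, beside 5.63%. Cd2, an adhesion receptor, stood at 10.1 and 109 CPM, and Cd5, a receptor of T cells, at 11.4 and 71.2 CPM. Cd3d, Cd3g and Lck, parts of T cell receptor signalling, had ratios of -0.25, -0.28 and -0.21. The 8 B cell markers summed to 0.921 and 0.984 CPM, and 3 of them had 0 counts in both libraries. The 10 myeloid markers summed to 19.9 and 23.5 CPM, also with 3 at 0 in both, and among them Lyz2 stood at 7.24 and 1.69 CPM, Itgam at 8.42 and 14.7 CPM and Cd68 at 3.29 and 6.19 CPM. The 8 erythroid markers found summed to 12.5 and 13.5 CPM. The part of these markers and cells in the ratios of the members was not tested, and fewer cells of a type cannot be told apart from less RNA per cell.

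Together the 78 members took 0.370% of the untreated counts (exact binomial 95% interval 0.366% to 0.375%) and 0.341% of the Dox counts (0.338% to 0.344%). Their levels, scaled by TMM, added up to 3642 CPM untreated and 3463 CPM after Dox. The summed log2 ratio was -0.073 (-0.094 to -0.052). All such intervals are exact 95% intervals that cover counting error only, with no spread between mice. A ratio below 0 was found for 50 of 76 tested members, beside 48.0% of all genes tested, and a ratio above 0 for 26, beside 52.0%. The interval lay wholly below 0 for 17 members, beside 23.5% of all genes, and wholly above 0 for 5, beside 27.0%. The members' ratios thus lay slightly below those of all genes tested as a set, while a smaller share of members than of all genes passed 1.5-fold. At least 1.3-fold lower were 4 members, beside 11.1% of all genes, and at least 1.3-fold higher was 1, beside 12.0%. The SD of the members' log2 ratios was 0.20, where counting error alone would give about 0.11, and over all genes tested the SD was 0.45.

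**Figure D1:**
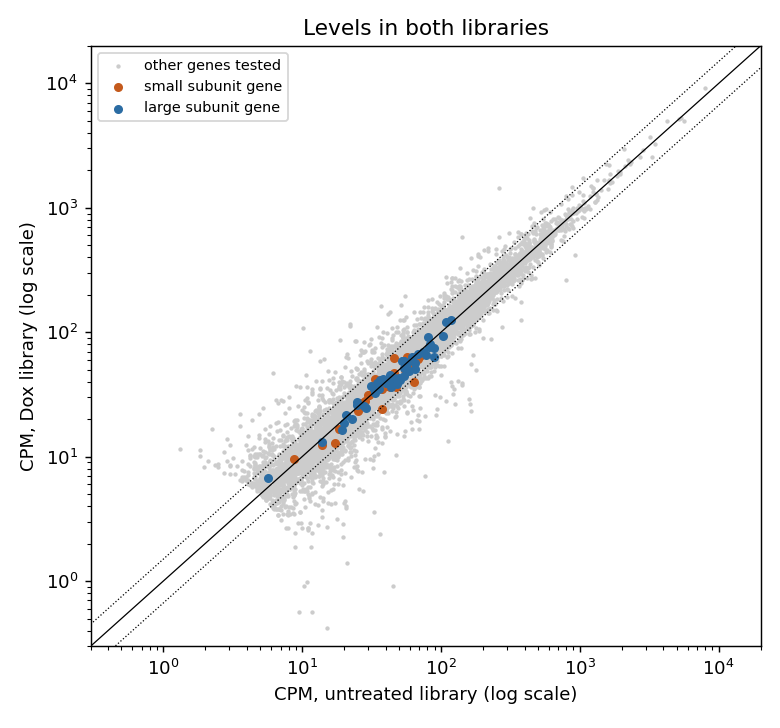
Each point is a gene with its CPM in the untreated library (x axis, log scale) and in the Dox library (y axis, log scale), with members coloured by subunit and other tested genes in grey. The solid line marks equal levels and the dotted lines 1.5-fold, and 74 of the 76 tested members lie between the dotted lines.

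The small subunit reads the messenger RNA and checks the pairing of codon and transfer RNA. Of its 28 tested genes, 19 had a ratio below 0 and 9 above, beside 48.0% and 52.0% of all genes. At least 1.5-fold lower were 2 of them (7.14%), beside 5.63% of all genes, and 0 were at least 1.5-fold higher, beside 5.97%. Summed, they stood at 1166 and 1102 CPM, a log2 ratio of -0.082 (-0.12 to -0.044). The single ratios ran from -0.69 to 0.42 with an SD of 0.24, so both the lowest and the highest ratio of all tested members belonged to this subunit.

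Mrps25, a protein found only in mitochondrial ribosomes, had the lowest ratio of all members. From 489 untreated counts and 568 counts of the deeper Dox library it came to 64.3 and 39.9 CPM, 1.61-fold lower with Dox, with a log2 ratio of -0.69 (-0.87 to -0.51). The gene lies on chromosome 6 from 92169512 to 92184023, and 69.8% of its exon bases in GENCODE M21 overlap exons of Nr2c2, which encodes a nuclear receptor. The log2 ratio of Nr2c2 was -0.0036 (-0.12 to 0.11), from 119 CPM in either library. The sources used here do not say how reads in such overlaps were counted, and the part of the overlap in the value of Mrps25 was not tested.

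Mrps31, another protein of mitochondria only, had 284 and 346 counts, or 37.4 and 24.3 CPM. It was 1.53-fold lower with Dox, with a log2 ratio of -0.62 (-0.85 to -0.39). Its exons overlap those of no other gene in GENCODE M21. The next lowest ratio in this subunit was that of Mrps18b, at 131 and 183 counts, with -0.42 (-0.75 to -0.087).

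Mrps34, a mitochondria-specific protein of the small subunit, followed at -0.37 (-0.57 to -0.18), with 47.2 and 36.4 CPM, and lay just inside 1.3-fold. Its exons overlap those of Nme3 and Mapk8ip3 over 77.8% of their bases, and these genes had ratios of -0.084 and -0.11. Mrps5, whose bacterial relative sits where the messenger RNA enters, had a ratio of -0.23 (-0.43 to -0.025). The interval of these small subunit genes lay wholly below 0.

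In the other direction stood Mrps23 and Mrps21. Mrps23, found in mitochondrial ribosomes only, had 349 and 877 counts, or 45.9 and 61.6 CPM, and was 1.34-fold higher with Dox, at 0.42 (0.24 to 0.61). Mrps21, the relative of a small bacterial protein of the same number, had 253 and 601 counts, or 33.3 and 42.2 CPM, and a ratio of 0.34 (0.13 to 0.56). These were the only tested small subunit genes whose interval lay wholly above 0. Next came Mrps26 at 0.15 (-0.014 to 0.32), Mrps11 at 0.13 (-0.085 to 0.34) and Mrps33, with 67 and 137 counts, at 0.12 (-0.30 to 0.57).

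Mrps12, whose bacterial relative lines the decoding centre, stood at 0.050 (-0.18 to 0.29), with 30.1 and 31.2 CPM. Mrps7 stood at -0.041 (-0.20 to 0.12) and Mrps14 at -0.0054 (-0.18 to 0.17). Mrps17 stood at -0.17 (-0.53 to 0.19) and Mrps15 at -0.16 (-0.32 to 0.00081). The interval of each of these 5 genes holds 0, so that at this depth they were not distinguishable from an equal level.

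The Mrps18 genes are 3 paralogs related to bacterial protein S18, and each copy occupies a place of its own in the ribosome. Mrps18c, which takes the place of the bacterial protein, had a ratio of 0.040 (-0.21 to 0.29) at 26.3 and 27.1 CPM. Mrps18b, also in the small subunit, was lower at 17.2 and 12.9 CPM, as given above. Mrps18a, which despite its name is built into the large subunit, had one of -0.015 (-0.26 to 0.23) at 28.4 and 28.1 CPM. The intervals of all 3 overlap.

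**Figure D2:**
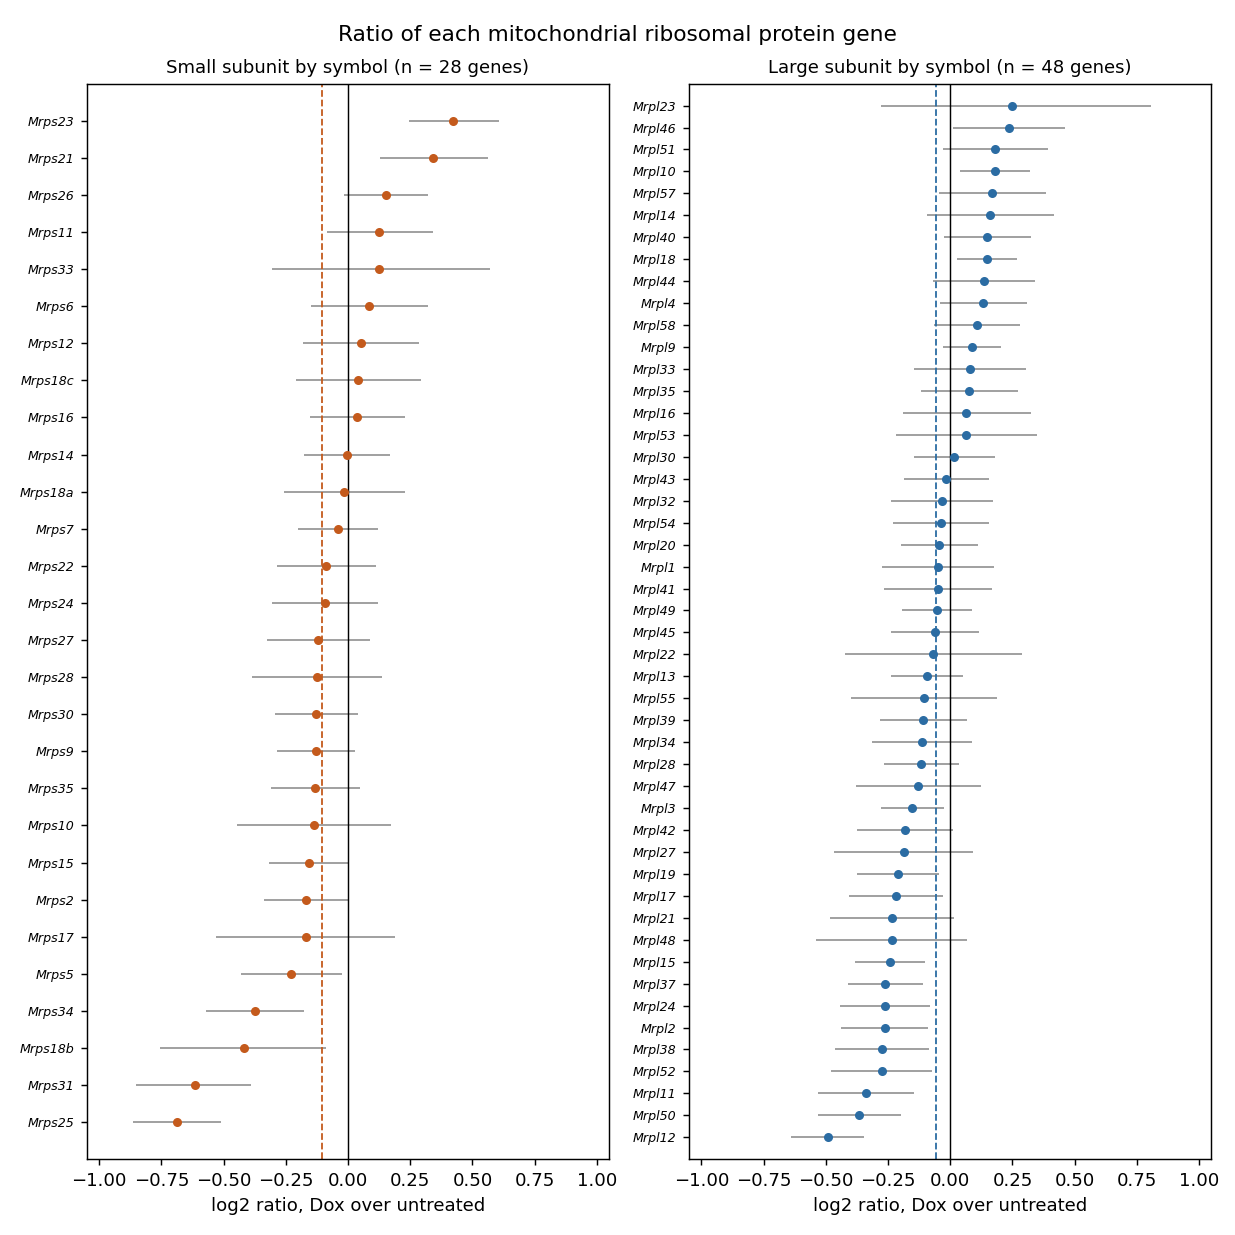
Points are the log2 ratio of Dox over untreated of each tested member, with its exact 95% counting interval, for the 28 genes named for the small subunit (left) and the 48 named for the large subunit (right). Dashed lines mark the medians of -0.11 and -0.057, and the small subunit holds both ends of the range, from Mrps25 at -0.69 to Mrps23 at 0.42.

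The large subunit joins amino acids into protein and holds the exit tunnel, which in mitochondria leads to the inner membrane. Of its 48 tested genes, 31 had a ratio below 0 and 17 above, beside 48.0% and 52.0% of all genes, and 0 reached 1.5-fold in either direction, beside 5.63% lower and 5.97% higher of all genes. Summed, they stood at 2474 and 2359 CPM, a log2 ratio of -0.069 (-0.095 to -0.043). The ratios ran from -0.49 to 0.25 with an SD of 0.18. At least 1.3-fold lower was 1 gene, Mrpl12, beside 11.1% of all genes, with Mrpl50 just short of that size, and 0 were at least 1.3-fold higher, beside 12.0%.

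Proteins of the stalk recruit the translation GTPases, and their genes went in both directions. Mrpl12, which forms the flexible stalk in several copies and has also been described as a partner of the mitochondrial RNA polymerase, had 674 and 896 counts. At 88.7 and 63.0 CPM it was 1.41-fold lower with Dox, with a ratio of -0.49 (-0.64 to -0.35), the lowest of the large subunit. Mrpl11, at the stalk base, stood at 48.3 and 38.2 CPM and -0.34 (-0.53 to -0.14). Mrpl10, which anchors the copies of Mrpl12, had 617 and 1307 counts, or 81.2 and 91.9 CPM, and a ratio of 0.18 (0.039 to 0.32). The interval of Mrpl10 thus lay above those of both partners.

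Mrpl2, Mrpl3 and Mrpl16 lie near the peptidyl transferase centre, where peptide bonds form, and Mrpl4 lines the exit tunnel that leads from it. Mrpl2 had a ratio of -0.26 (-0.44 to -0.089), from 58.4 and 48.6 CPM, and Mrpl3 one of -0.15 (-0.28 to -0.023), from 104 and 93.9 CPM. Mrpl4 had a ratio of 0.13 (-0.041 to 0.31) and Mrpl16 one of 0.064 (-0.19 to 0.32). The first pair was thus lower beyond counting error, and the second pair was not distinguishable from an equal level at this depth.

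Around the exit tunnel, Mrpl24 had a ratio of -0.26 (-0.44 to -0.080) and Mrpl17 one of -0.22 (-0.41 to -0.030). Mrpl45, which in mammals lies at the mouth of the tunnel and ties the ribosome to the inner membrane, had 413 and 741 counts and a ratio of -0.061 (-0.24 to 0.12). Mrpl22, at 105 and 187 counts, stood at -0.071 (-0.42 to 0.29) and Mrpl47 at -0.13 (-0.38 to 0.12). Mrpl23, with 43 and 96 counts the least abundant tested member, had the highest ratio of the large subunit, 0.25 (-0.28 to 0.81). That interval spans 0, and RefSeq lists a pseudogene of Mrpl23, whose part in its low count was not tested.

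Among the large subunit proteins found in mitochondria only, Mrpl50 stood at -0.37 (-0.53 to -0.20), with 65.5 and 50.8 CPM. Mrpl52 had -0.28 (-0.48 to -0.074), Mrpl38 had -0.27 (-0.46 to -0.085) and Mrpl37 had -0.26 (-0.41 to -0.11). These genes lay lower beyond counting error, each by under 1.3-fold. Mrpl58, which kept the activity of a peptide release factor and rescues stalled ribosomes, stood at 0.11 (-0.064 to 0.28). Mrpl44, which has the fold of an RNase III enzyme, stood at 0.13 (-0.069 to 0.34), Mrpl57 at 0.17 (-0.046 to 0.38) and Mrpl51 at 0.18 (-0.027 to 0.39). Mrpl46, which shares its start region with Mrps11, was among the highest at 31.6 and 37.2 CPM and 0.23 (0.013 to 0.46).

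Small against large subunit, the summed log2 ratios of -0.082 and -0.069 differed by -0.013, less than the width of either interval. Small subunit genes held 32.0% of the members' untreated counts (31.5% to 32.6%) and 31.8% of their Dox counts (31.4% to 32.3%). The balance between the subunits was therefore not distinguishable between the libraries at this depth. Mrps30, like Mrps18a, is built into the large subunit, and it stood at -0.13 (-0.29 to 0.040). With both placed by structure, the shares were 29.6% and 29.4%, and the difference of the medians was again -0.049.

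In the standard nomenclature, 45 tested members are classed as having a bacterial counterpart and 31 as mitochondria-specific. The 31 include Mrps18a and Mrps18b, although both are related to bacterial S18. The summed log2 ratios of these classes were -0.065 (-0.092 to -0.038) and -0.086 (-0.12 to -0.051). Within the small subunit placed by structure, the 10 genes classed as mitochondria-specific, Mrps18b among them, spread most. They had an SD of 0.35 and a summed ratio of -0.15 (-0.21 to -0.083). Of their 3167 untreated and 5355 Dox counts, Mrps25 held 489 and 568, and Mrps34 held 359 and 518. The exons of this pair overlap those of other genes over 69.8% and 77.8% of their bases. The part of these overlaps in the summed ratio was not tested. The 16 small subunit genes classed with a bacterial counterpart had an SD of 0.15 and a summed ratio of -0.042 (-0.092 to 0.0084). The large subunit showed an SD of 0.17 for both kinds. Whether these spreads differ was not tested.

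Levels per kilobase allow the genes to be compared with each other, with the gene length as the authors listed it. Over the 76 tested members the median was 35.7 CPM per kilobase without Dox and 36.0 with Dox, and the small and large subunits had untreated medians of 35.5 and 38.6. The highest was Mrpl18, a protein of the large subunit, at 114 and 126 CPM per kilobase, followed in the untreated library by Mrpl52 at 107 and Mrpl13 at 104. The lowest was Mrpl17, at 7.47 and 6.42 CPM per kilobase, followed in the untreated library by Mrpl1 at 8.01 and Mrps33 at 8.36. In the small subunit Mrps21 at 81.8 and 104, Mrps16 at 80.9 and 83.0 and Mrps15 at 72.9 and 65.3 CPM per kilobase were highest in the untreated library, and with Dox Mrps26 stood above Mrps15, at 66.1. Mrps25 was the lowest of that subunit after Dox, at 6.57. The highest level was thus 15.2 times the lowest without Dox, although most of these proteins are built into the ribosome once. Mrpl17 and Mrps25 are listed with lengths of 6712 and 6076 bases, the longest of all members, and the length counted sets their value per kilobase.

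**Figure D3:**
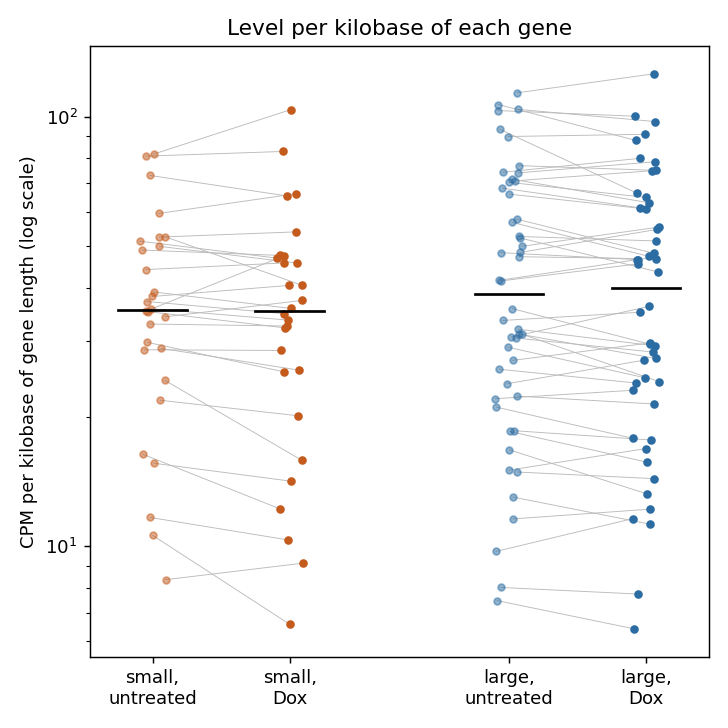
Points are the CPM per kilobase (y axis, log scale) of each tested member in the untreated (pale) and Dox (dark) library, by subunit, with a grey line joining the values of a gene and a black bar at the median. Without Dox the genes run from 7.47 to 114, and the medians over all tested members are 35.7 and 36.0.

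The members under the 5 CPM minimum were Mrps36 and Mrpl36. Mrps36, which is now known as a component of the 2-oxoglutarate dehydrogenase complex and not of the ribosome, had 13 and 30 counts, 1.71 and 2.11 CPM. RefSeq lists 3 pseudogenes of it. Mrpl36, a small protein with a bacterial relative, had 0 untreated counts and 1 Dox count, where a count of 0 allows up to 0.395 and 0.211 CPM, and its start overlaps that of Ndufs6, at 38.0 and 31.6 CPM. No fold is given for it. Among all members, 33 share exon bases with another gene in GENCODE M21, and for 3 of them, Mrps25, Mrps34 and Mrpl53, the shared part is at least 50%.

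Subunits of the mitochondrial ribosome that carry other names were read beside the members. Of these 5 genes, 3 had a ratio below 0, beside 48.0% of all genes, and 0 reached 1.3-fold in either direction, beside 11.1% lower and 12.0% higher, with a median of -0.12. Dap3, a GTP-binding protein of the small subunit, stood at 0.079 (-0.018 to 0.18), with 167 and 176 CPM. Chchd1, of the small subunit, had one of -0.24 (-0.42 to -0.060), and Ptcd3, which binds RNA in that subunit, one of -0.21 (-0.33 to -0.089). Aurkaip1 stood at 0.13 (-0.015 to 0.28) and Gadd45gip1, of the large subunit, at -0.12 (-0.31 to 0.069).

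Assembly factors put the ribosome together. Of 23 tested, 5 were at least 1.3-fold lower (11.1% of all genes) and 2 at least 1.5-fold lower (5.63% of all genes), with 0 at least 1.3-fold higher (12.0%) and a median of -0.040. The 2 were Mrm1, which methylates the ribosomal RNA of the large subunit, at 28.9 and 18.1 CPM and -0.67 (-0.95 to -0.41), and the GTPase gene Gtpbp10, at 14.6 and 9.42 CPM and -0.62 (-1.01 to -0.26). Fastkd2, an RNA-binding protein, stood at -0.45 (-0.68 to -0.23) and Mrm3, a second methyltransferase of that RNA, at -0.44 (-0.77 to -0.11).

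The list of translation factors also held Lrpprc and Slirp, which bind messenger RNA, and Mtfmt, which modifies a transfer RNA. The list had 2 of 15 genes at least 1.5-fold lower (5.63% of all genes), 0 at least 1.5-fold higher (5.97%) and a median of -0.093. Mtif2, the initiation factor that places the first transfer RNA, was 49.7 and 30.6 CPM, at -0.70 (-0.90 to -0.499), and Mtrf1, a release factor, had 66 and 70 counts and a ratio of -0.80 (-1.33 to -0.31). Mtif3, the other initiation factor, stood at 0.35 (0.060 to 0.64), so that the initiation factors lay on opposite sides. Guf1, a GTPase related to bacterial LepA, had a ratio of -0.40 (-0.60 to -0.21), while the elongation factor gene Gfm1 stood at 0.036 (-0.090 to 0.16).

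The list of mitochondrial aminoacyl-tRNA synthetases, which load transfer RNAs, also held Gatb, Gatc and Qrsl1, subunits of an amidotransferase. These had ratios of -0.30, -0.020 and -0.0034. The whole list had the lowest median of these lists, -0.17, with 17 of 20 genes below 0 (48.0% of all genes). Of its genes, 3 were past 1.3-fold in the lower direction (11.1%) and 0 past 1.5-fold (5.63%). Mars2 at -0.45 (-0.70 to -0.20), Vars2 at -0.42 (-0.58 to -0.26), Cars2 at -0.39 (-0.64 to -0.14) and Yars2 at -0.37 (-0.58 to -0.15) were the lowest. Protein import had a median of -0.14, with 18 of 24 genes below 0 (48.0% of all genes) and 1 at least 1.5-fold lower (5.63%), the gene of the small TIM chaperone Timm10 at -0.62 (-1.02 to -0.24). The matrix chaperones Hspa9, at 766 and 592 CPM, and Hspd1, at 582 and 452 CPM, had ratios of -0.37 and -0.37. Genes of mitochondrial DNA maintenance and transcription had a median of -0.078 over 11 genes, with the helicase gene Twnk at -0.495 (-0.70 to -0.30) and Mterf1a, at 34 and 96 counts, at 0.57 (0.015 to 1.20).

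**Figure D4:**
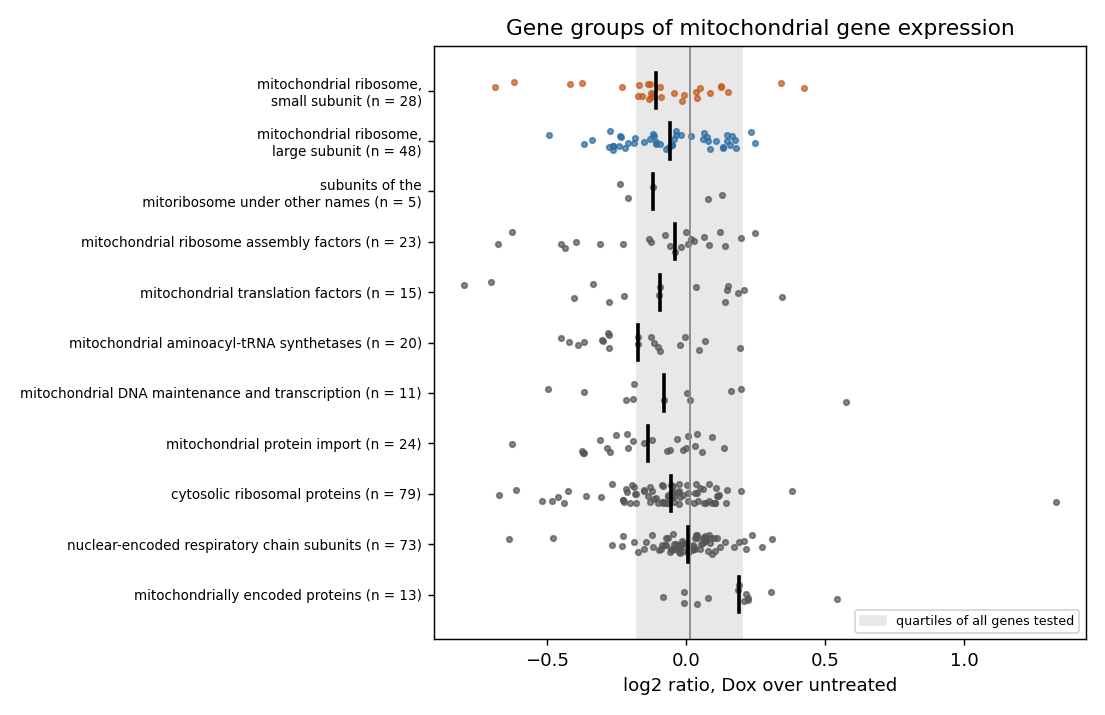
Points are the log2 ratios of Dox over untreated (x axis) of the tested genes of each group, with black bars at the medians. The grey band spans the quartiles of the single genes over all genes tested, -0.18 to 0.20. The medians of the groups run from -0.17 for the list of aminoacyl-tRNA synthetases to 0.19 for the proteins encoded by mitochondrial DNA.

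The cytosolic ribosomal protein genes had a median of -0.053 over 79 tested genes, with 53 below 0 and 76 within 1.5-fold, beside 48.0% and 88.4% of all genes. Their ratios ran from -0.67 (Rpl11) to 1.33 (Rpl15). They were taken by name, with related copies among them, and the handling of shared reads is not given. Rpl37rt stood at 569 and 613 CPM, and Rpl37 at 16.1 and 17.2 CPM. The nuclear-encoded subunits of the respiratory chain, listed together with those of ATP synthase, had a median of 0.0068 over 73, with 35 below 0 and 72 within 1.5-fold. Of 76 mitochondrial ribosomal protein genes 74 did so, and whether the 3 sets differ was not tested. The transcripts that the mitochondrial ribosome translates had a median of 0.19 over 13 genes, with 10 above 0 (52.0% of all genes) and 0 at least 1.5-fold higher (5.97%). The highest ratio was that of ATP8, at 0.54 (0.14 to 0.98), from 66 and 181 counts. ATP6 had a ratio of 0.30 (0.20 to 0.41), from 137 and 169 CPM, and COX3 one of 0.22 (0.12 to 0.32), from 159 and 186 CPM. How reads shared with other genes were counted is not given for these transcripts either. COX1 was the most abundant of them in both libraries, with 7996 and 9107 CPM, and its ratio was 0.19 (0.17 to 0.20). The 3 below 0 were ND1 at -0.083 (-0.105 to -0.061), from 3473 and 3278 CPM, ND4L at -0.0074 (-0.39 to 0.39) and ND6 at -0.0057 (-0.051 to 0.039). These transcripts thus lay on both sides of 0, with most above it.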

How the data were processed

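The values the authors deposited are counts, whole numbers of reads per gene by Entrez Gene number, with no normalization and 1 column per group. Per the submitters' processing notes, CASAVA 1.8.2 and featureCounts were used on mm10. Not given in the sources used here are the aligner, the annotation, the strand setting, the handling of shared reads, and how the 3 mice per group and 2 runs per RNA of the design text were combined. The deposited gene length, in bases, is the authors' other column. The series table and the files of the single libraries differed in 0 values.

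RefSeq (GRCm38.p6) gave symbols for 25275 of 27179 genes. Counts were scaled by TMM in edgeR 4.0.16 (R 4.3.3, factors 1.02 and 0.984), and log2 ratios used a prior count of 2, scaled to library size. Clopper-Pearson intervals were taken on the part of each gene's reads that came from Dox, with no prior count. The ratios and intervals were tested on simulated data that held counting error only, which cannot show how they fare with spread between mice. Subunit and bacterial descent follow the standard nomenclature of ribosomal proteins. The members, lists, motifs and rules were chosen with earlier results of these data known. Named members were the 5 highest and 5 lowest ratios of each subunit, all past 1.5-fold, the 3 highest and 3 lowest levels per kilobase of each subunit, the Mrps18 paralogs, Mrps30, Mrps36 and those under 5 CPM. Each list added up to 4 genes with the largest absolute ratio. Other names (among them Mrpl2, Mrpl4, Mrpl16, Mrpl45, Mrps12, Dap3 and Gfm1) were chosen after their values were seen, for their roles. Alternatives were scaling by total counts or by the size factors of DESeq2 1.42.0, a prior count of 0.5 or 5, a minimum of 1, 20 or no CPM, subunits by structure, and summed counts. Removing the trend with gene length was added after seeing the data, and the 1.3-fold size then replaced a slightly smaller planned one. Python 3.11.15 did the rest.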

Additional observations from a re-analysis of the deposited data

How the results depend on the processing

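No paired analysis was possible because each group has 1 library, and for the same reason no replicate could be left out. The median of all members was -0.079 in the main setting, -0.126 with total counts and -0.057 with a minimum of 20 CPM. With total counts the medians of the small and large subunit were -0.153 and -0.104, with 7 members in place of 4 at least 1.3-fold lower and 0 in place of 1 at least 1.3-fold higher. With no filter on low values 2 were at least 1.3-fold higher, the added one being Mrpl36 with its 1 count. The median of all genes moved along, from 0.014 to -0.033 with total counts. The median of the members minus that of all genes ran from -0.094 to -0.066 over the settings that gave it. The difference of small minus large subunit ranged from -0.049 to -0.022 over the settings that compare medians. It was -0.013 from summed counts and -0.012 from summed counts by structure, and below 0 in each setting. Counting error on the summed difference reached 0.046 to either side. All settings read the same libraries, so the shared sign is no replicate check. Mrps25 stayed between -0.73 and -0.68 and Mrps31 between -0.66 and -0.59. The median of the respiratory chain and ATP synthase subunits, 0.0068, was -0.040 with total counts, and that of the cytosolic ribosomal proteins, -0.053, was -0.0997. The median for mitochondrial DNA maintenance and transcription, -0.078, was -0.124 with total counts and -0.037 with a minimum of 1 CPM. With total counts protein import went from -0.14 to -0.18, and the proteins encoded by mitochondrial DNA from 0.19 to 0.15. With a minimum of 20 CPM the medians of the assembly and translation factors were -0.100 and -0.029, over fewer genes. Depth limits single genes, with intervals that reached a median of 0.20 to either side of the ratio over the tested members.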

Other observations

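Some members start close to a gene on the opposite strand, and how many of all genes do so was not counted. In GENCODE M21, 23 members had a protein-coding neighbour on the opposite strand whose start lay within 1000 bases upstream or overlapped by under 250 bases, and in 21 of these pairs both genes were tested. Mrps11 and Mrpl46 are not counted here, since their outer GENCODE starts overlap by 412 bases. The neighbours' ratios ran from -0.73 to 0.54, and 20 of 21 lay within 1.5-fold, beside 88.4% of all genes tested. The sign was shared in 11 of 21 pairs, and across pairs Pearson's r was 0.15, a description over genes of the same libraries. Mrps18b stood at -0.42 (-0.75 to -0.087), while its neighbour Ppp1r10, a regulator of protein phosphatase 1 whose start lies 45 bases away, stood at 0.21 (0.079 to 0.35). Mrpl50 at -0.37 and Mrpl2 at -0.26 had neighbours at 0.39 (-0.051 to 0.87, Zfp189) and 0.54 (0.23 to 0.87, Klc4, a kinesin light chain). Mrpl51 at 0.18 and Ncapd2, a condensin subunit gene at 613 and 704 CPM, with 0.20 (0.15 to 0.25), lay on the same side. These pairs were picked after their values were seen.

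Lactb, a mitochondrial protein once listed as Mrpl56 and not a ribosomal protein, stood outside the range of the members. Its log2 ratio was 0.65 (0.32 to 1.01), from 94 and 278 counts. It was looked up by its older symbol after the members had been listed.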
